A study of Mus musculus with 24 samples.

Results

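The MHC class II presentation genes were followed through RNA sequencing of mouse CD4+ cell cultures. They were chosen by name, as 10 of the 22009 named entries of the expression table: Cd74, H2-Aa, H2-Ab1, H2-Eb1, H2-DMa, H2-DMb1, H2-DMb2, H2-Oa, H2-Ob and Ciita. The 24 libraries came from WT C57BL/6 spleen CD4+ cells, pooled from 6 mice and purified by negative selection, which leaves the wanted cells untouched and can leave some other cells behind. Resting cells gave 2 libraries. Cells stimulated with anti-CD3e and anti-CD28 were taken at 4, 8, 12, 16, 20 and 24 h, with 1 library for each time under 3 conditions: Th0, with no further agent, Th1, with IL-12 and an antibody to IL-4, and Th2, with IL-4 and antibodies to IL-12 and to IFN-γ. In the remaining 4 libraries, actinomycin, a blocker of transcription, was added after 16 h of stimulation, and cells were taken 0, 1, 2 or 4 h later. The labels do not give the skewing condition of these. No animal's age is given for these groups. The labels describe CD4 cells and the bead selection alone. The methods describe naive cells for the skewing cultures, obtained by a further sort on CD4, CD25, CD44 and CD62L, a step that would remove B cells and macrophages, and whether these libraries were made from sorted cells is not settled by the sources used here. The resting libraries carry another tag in their labels than the cultures, so a difference between preparations and an effect of stimulation cannot be told apart. The actinomycin libraries carry neither tag. Whether they share the pool and preparation of the cultures is not settled by the sources used here. Each condition and time was sequenced once from 1 pool of cells, so p-values measure the spread between libraries and not between animals.

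MHC class II molecules are pairs of an alpha and a beta chain that show peptides from swallowed proteins to CD4+ T cells. They are made by B cells, dendritic cells and activated macrophages, and mouse T cells are generally held to lack them. The invariant chain Cd74 escorts new molecules to the endosome, H2-DM exchanges the last fragment of Cd74 for peptide, H2-DO restrains H2-DM, and Ciita is the coactivator that switches the whole group on.

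The promoters of the group are known for an X box and a Y box, a pair of short motifs bound by RFX, CREB and NF-Y, on which Ciita docks. They are shown here as background to the group, and a link between the motifs and the levels in these cultures was not tested. RefSeq (GRCm38.p6) had promoter entries, from 250 bases before to 50 bases after a start, for 7 of the 10 genes. GCAAC, which lies in many X boxes, followed by ATTGG, the core of the Y box, at a distance of 15 to 40 bases was found in 4 of them. The search covered both strands, and 1.24% of the 32851 promoter entries of the same length held this pair. GCAAC alone was in 35.2% of all entries and ATTGG alone in 37.4%. Capitals mark both motifs, on the strand of the gene. The coordinates are chr17:34287861-34287910 (minus strand) for H2-Aa, chr17:34305770-34305818 for H2-Eb1, chr17:34238812-34238858 for H2-Ob and chr17:34092297-34092346 for H2-Oa (plus strand).
H2-Aa: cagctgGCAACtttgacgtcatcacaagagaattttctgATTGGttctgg
H2-Eb1: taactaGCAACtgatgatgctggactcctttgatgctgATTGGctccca
H2-Ob: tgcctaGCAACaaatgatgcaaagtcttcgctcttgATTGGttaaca
H2-Oa: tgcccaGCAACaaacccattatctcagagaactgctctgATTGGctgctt

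The spacing between the motifs was 28 bases in H2-Aa and H2-Oa, 27 in H2-Eb1 and 25 in H2-Ob. The paired genes for the H2-DM beta chain held ATTGG without the exact letters GCAAC, at chr17:34153085-34153140 for H2-DMb1 and chr17:34145114-34145169 for H2-DMb2 (plus strand). X boxes of other letters were not searched for, so their absence is not shown. H2-DMb1 holds gtaactgatgatgct, beside GCAACtgatgatgct in H2-Eb1.
H2-DMb1: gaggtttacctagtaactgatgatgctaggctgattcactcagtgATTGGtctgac
H2-DMb2: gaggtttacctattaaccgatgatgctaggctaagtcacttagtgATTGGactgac

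H2-DMa had 2 entries, with windows beginning at 34122582 and 34125268 of the same chromosome, of which the first held GCAAC without ATTGG and the second ATTGG without GCAAC. A match describes these letters only, and genes with the pair, such as H2-Aa and H2-Ob, still differed in their courses in culture.

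In resting cells the class II transcripts were plainly present, and their levels are compared per length, in RPKM, the reads of a gene divided by its transcript length and by the mapped reads of its library. Cd74 was highest, with 189 and 204 RPKM in the 2 libraries. The chains of the classical molecule followed, with 76.7 and 81.4 RPKM for H2-Aa, 58.3 and 63.3 RPKM for H2-Ab1 and 38.2 and 45 RPKM for H2-Eb1. In this strain the alpha chain partner of H2-Eb1 is encoded by a pseudogene, so the H2-Eb1 chain is known to have no place at the surface. H2-Ob, the beta chain of H2-DO, had 37.0 and 36.7 RPKM, far above its partner H2-Oa with 4.47 and 5.32 RPKM. H2-DMa had 20.0 and 16.2 RPKM, H2-DMb2 8.02 and 7.90 RPKM, and H2-DMb1 7.92 and 7.17 RPKM. Ciita was lowest, with 1.29 and 0.962 RPKM. Neighbours in this order did not overlap between the 2 libraries, with the exception of H2-DMb2 and H2-DMb1.

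Libraries held between 17512385 and 33017133 mapped reads, as recovered from the steps of the values. Whole reads could be recovered for 2 of the 10 genes. Ciita had 134 and 119 reads in the resting libraries (exact Poisson 95% intervals 1.00 to 1.64 and 0.733 to 1.24 RPKM, counting error only) and 37 to 187 reads in the cultures. H2-Eb1 had 269 to 752 reads in the cultures. T cell transcripts matched the label in every library, with Cd3e between 101 and 194 RPKM and Cd4 between 111 and 328 RPKM over the 24 libraries.

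Markers of other cells were present too. At rest the defining B cell markers Cd79a and Ms4a1 summed to 31.5 and 36.4 RPKM, and the macrophage markers Csf1r, C1qa and Adgre1 to 201 and 204 RPKM. The dendritic cell markers Itgax, Flt3 and Siglech were low, between 1.23 and 4.78 RPKM. Of these 8 markers, 7 were above 0 in every library, and C1qa was at 0 in 1 of 24, Th2 at 16 h. In bulk samples, fewer cells of a type and less RNA per cell cannot be told apart.

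**Figure D1:**
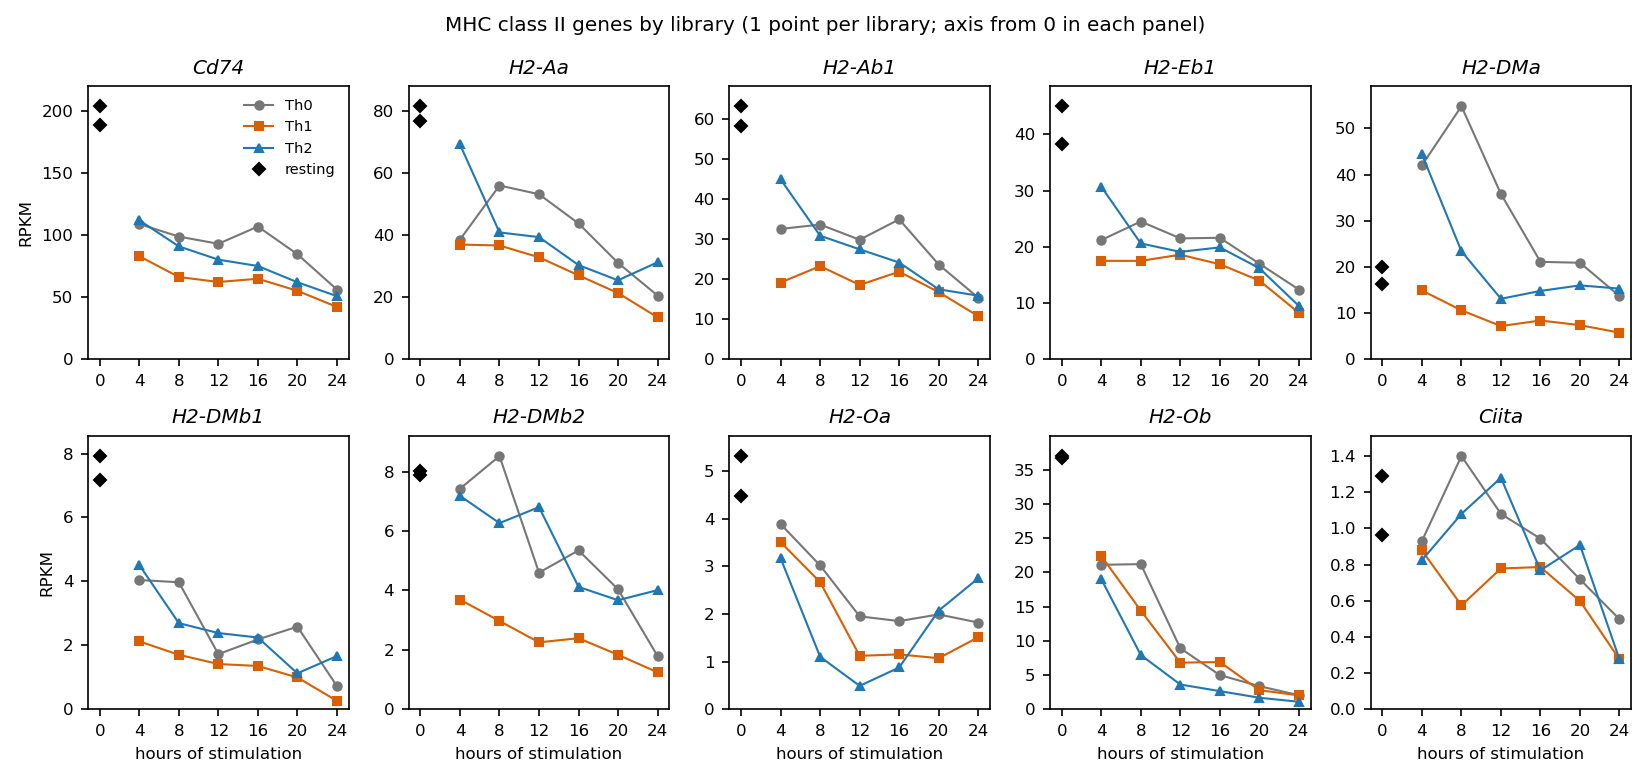
RPKM of the 10 class II genes against hours of stimulation, with 1 point per library: black diamonds are the 2 resting libraries, and grey circles, orange squares and blue triangles are Th0, Th1 and Th2 cultures. Cd74 lay between 42.2 and 112 RPKM in the cultures against 189 and 204 RPKM at rest, and H2-DMa lay above both resting libraries in Th0 and Th2 at 4 h but not in Th1.

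Cd74, the invariant chain, was below both resting libraries in all 18 cultures. At 4 h its levels in Th0, Th1 and Th2 were 109, 83.1 and 112 RPKM, and at 24 h they were 56.2, 42.2 and 50.9 RPKM. The lowest value of each condition was at 24 h and the highest at 4 h, with medians of 96.0, 63.6 and 77.8 RPKM. Against resting cells the log2 difference (on log2(RPKM + 0.5), as for all differences here) was -0.96 at 4 h (SE 0.24, adjusted p = 0.00536, limma), just under 2-fold. It fell by 1.98 on the log2 scale at 24 h (SE 0.24, adjusted p = 2.96e-06, limma), to 25.3% of the resting mean.

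The 3 classical chains took a similar course. H2-Ab1, the beta chain of the I-A molecule, had 32.6, 19.2 and 45 RPKM in Th0, Th1 and Th2 at 4 h and 15.4, 10.8 and 15.9 RPKM at 24 h. Its log2 difference was -0.99 at 4 h (SE 0.30, adjusted p = 0.0194, limma), and it fell by 2.10 at 24 h (SE 0.30, adjusted p = 1.79e-05, limma). H2-Aa, its alpha chain, had 38.5, 36.9 and 69.1 RPKM at 4 h, so that Th2 stood apart there. At 24 h H2-Aa had 20.5, 13.5 and 31.2 RPKM, a fall of 1.92 on the log2 scale (SE 0.33, adjusted p = 8.78e-05, limma). H2-Eb1 had 21.2, 17.5 and 30.7 RPKM at 4 h and 12.4, 8.26 and 9.49 RPKM at 24 h. It fell by 2.01 at 24 h (SE 0.21, adjusted p = 5.98e-07, limma). Every culture lay below both resting libraries for each of the 3 chains.

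Among themselves these 4 genes had Pearson r between 0.90 and 0.97 over the 20 libraries of the time course, for their 6 pairs, and between 0.86 and 0.95 over the 18 cultures. This is a description, since the points share a time axis and each library's depth. Over the same 20 libraries the 5 genes of H2-DM and H2-DO had r between 0.44 and 0.90 for their 10 pairs.

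The genes of peptide exchange did not move as 1 group. H2-Ob had 21.1, 22.4 and 19.0 RPKM in Th0, Th1 and Th2 at 4 h, and fell to 2.03, 2.00 and 1.07 RPKM at 24 h, which was 4.61% of its resting mean. The fall of 4.12 on the log2 scale (SE 0.41, adjusted p = 3.53e-07, limma) was the largest of the group at 24 h. H2-Oa had 3.89, 3.51 and 3.17 RPKM at 4 h and 1.82, 1.51 and 2.75 RPKM at 24 h, with its lowest value, 0.488 RPKM, in Th2 at 12 h. It fell by 1.12 at 24 h (SE 0.37, adjusted p = 0.0144, limma). The H2-DO chains, far apart at rest in favour of H2-Ob, were thus at similar levels at 24 h, and in Th2 H2-Oa was the higher.

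H2-DMb1 had 4.04, 2.12 and 4.51 RPKM at 4 h and 0.722, 0.259 and 1.66 RPKM at 24 h, a fall of 2.67 (SE 0.41, adjusted p = 3.57e-05, limma). H2-DMb2 had 7.43, 3.69 and 7.19 RPKM at 4 h and 1.79, 1.24 and 4.01 RPKM at 24 h, a fall of 1.69 (SE 0.49, adjusted p = 0.00621, limma). Of the 50-base windows of their transcripts, 22.7% of H2-DMb1 and 25.9% of H2-DMb2 occur in transcripts of other genes, the other of the pair foremost, so part of their reads could have been assigned to either.

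H2-DMa, the alpha chain of H2-DM, was the exception. It had 42.0 RPKM in Th0 and 44.4 RPKM in Th2 at 4 h, above both resting libraries, but 14.9 RPKM in Th1, below both. At 24 h it had 13.7, 5.76 and 15.3 RPKM in Th0, Th1 and Th2, all below rest. Averaged over the conditions, the 4 h level differed from rest by 0.74 on the log2 scale (SE 0.70, adjusted p = 0.459, limma), and the 24 h level by -0.73 (SE 0.70, adjusted p = 0.376, limma), neither past the threshold. Its SE was the widest of the group, and the 3 conditions, which serve as the libraries of a time point, differed in it.

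Ciita stayed near 1 RPKM through most of the course. It lay between 0.497 and 1.40 RPKM in Th0, between 0.275 and 0.878 RPKM in Th1 and between 0.275 and 1.28 RPKM in Th2, with the lowest library of each condition at 24 h. Its mean was below the 1 RPKM required for the test. With no such filter, the 4 h cultures differed from rest by -0.23 (adjusted p = 0.471, limma). The 24 h cultures differed by -0.94 (SE 0.21, adjusted p = 0.00134, limma), under 2-fold on this scale, where low genes are understated.

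Counting the 9 genes that passed the filter, 0 fell past the threshold (adjusted p under 0.05 and at least 2-fold, limma) at 4 h, where 7.97% of all genes tested had fallen. At that time 5 of the 9 had an unadjusted p under 0.05, beside 4569 of all 10897 genes tested. At 8 h 5 of 9 fell (Cd74, H2-Ab1, H2-DMb1, H2-Oa and H2-Ob), against 12.5% of all genes. H2-Eb1 joined them at 12 h, giving 6 of 9 against 16.4%, and H2-Aa at 16 h, giving 7 of 9 against 14.5%. From 20 h on, 8 of 9 fell, against 16.1% of all genes at 20 h and 17.4% at 24 h, with H2-DMa left out. The median log2 difference of the 9 genes was -0.81 at 4 h and -1.98 at 24 h, and that of all genes tested was -0.04 at both times. Without the Th2 cultures, 5 of the 9 fell at 4 h already, and without the Th0 cultures 2 did.

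The comparison of 24 h with 4 h leaves the resting libraries aside, and was chosen after seeing the data. Here 8 of 9 genes fell, against 13.2% of all genes tested, all but H2-Oa. The log2 differences were -1.02 for Cd74 (SE 0.21, adjusted p = 0.000535, limma), -1.14 for H2-Eb1 (SE 0.19, adjusted p = 5.75e-05, limma) and -3.31 for H2-Ob (SE 0.37, adjusted p = 1.43e-06, limma). That of H2-DMa was -1.46 (SE 0.63, adjusted p = 0.0494, limma) and kept its call in 5 of 15 alternatives. Without the Th2 cultures the count was 4 of 9.

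Transcripts of B cells and macrophages fell over the same hours. Between rest and 24 h, Cd79a went from 20.1 and 22.5 RPKM to between 2.13 and 3.33 RPKM, and Ms4a1 from 11.4 and 14.0 RPKM to between 1.49 and 3.93 RPKM. Of the B cell list, 14 of 16 genes tested fell at 24 h and 0 rose, beside 17.4% and 12.7% of all genes. The median log2 difference of this list was -2.25. Of the macrophage list, 14 of 14 fell, with a median of -5.14, and C1qa ended between 0.209 and 0.263 RPKM after 107 and 110 RPKM at rest. At 4 h, 6 of the 16 B cell genes and 13 of the 14 macrophage genes had fallen already, against 7.97% of all genes. The summed B cell list ranged from 168 to 181 RPKM at rest and from 41.6 to 51.2 RPKM at 24 h, and the macrophage list from 749 to 769 RPKM and from 12.6 to 18.6 RPKM. Of the 12 T cell genes, 0 passed the threshold at 24 h (limma) and 9 had an unadjusted p under 0.05, with a median of -0.53. Among all 10897 genes tested, 7468 had an unadjusted p under 0.05 at that time. The 4 haemoglobin genes, markers of red cells, all fell, with a median of -7.76. The part of these cells in the class II differences was not tested.

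The sum of Cd74, H2-Aa, H2-Ab1 and H2-Eb1 was 11.5 and 10.8 times that of Cd79a and Ms4a1 at rest, 9.20 to 12.3 times at 4 h and 16.7 to 20.6 times at 24 h. It was highest among the cultures, at 25.7 times, in Th0 at 16 h. Over the 20 libraries, the mean log2 level of the B cell list (without Fcer2a) had Pearson r of 0.92 with Cd74, 0.89 with H2-Ab1, 0.92 with H2-Ob, 0.62 with Ciita and 0.46 with H2-DMa. The macrophage list had r of 0.86, 0.79, 0.78, 0.41 and 0.23 with the same 5 genes, and the T cell list 0.46, 0.37, 0.37, 0.14 and -0.29. These are descriptions of points that share time and depth.

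**Figure D2:**
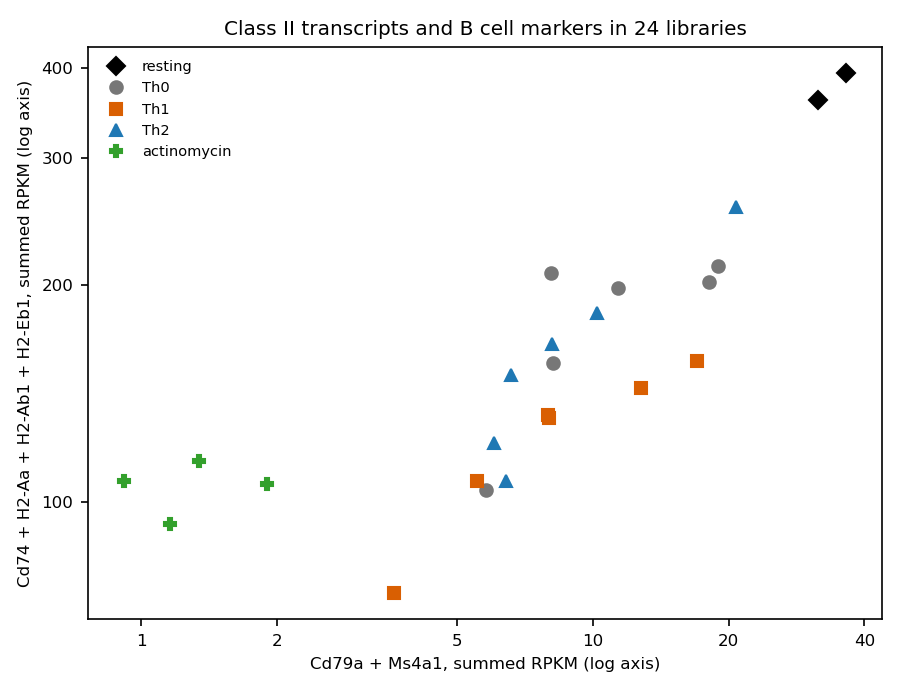
Summed RPKM of Cd74, H2-Aa, H2-Ab1 and H2-Eb1 against summed RPKM of the B cell markers Cd79a and Ms4a1, both on log axes, with 1 point for each of the 24 libraries. Resting libraries lay highest on both axes and the 18 cultures lay below them, down to 74.8 RPKM of class II transcripts in Th1 at 24 h, whereas the 4 actinomycin libraries had 93.3 to 114 RPKM of class II transcripts at 0.916 to 1.90 RPKM of the B cell markers.

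When each library was set to a constant mean log2 level of the B cell list (without Fcer2a), the classical genes no longer passed the threshold against rest. At 24 h the log2 difference was 0.08 for Cd74 (SE 0.20), 0.14 for H2-Aa (SE 0.27), -0.04 for H2-Ab1 (SE 0.24) and 0.05 for H2-Eb1 (SE 0.16), with adjusted p between 0.619 and 0.88 (limma). H2-Ob still fell, by 2.06 (SE 0.38, adjusted p = 4.67e-05, limma). H2-DMa was higher than at rest on this scale, by 1.33 (SE 0.61, adjusted p = 0.0446, limma), and H2-Oa had a difference of 0.94 (SE 0.35, adjusted p = 0.0158, limma), under 2-fold. Relative to Cd79a and Ms4a1 alone, a scale chosen after seeing the data, the classical genes had differences between 0.38 and 0.55 (adjusted p from 0.0679 to 0.243, limma). On that scale H2-Oa was higher than at rest past the threshold, by 1.35 (SE 0.32, adjusted p = 0.000255, limma). Such a scale measures change relative to these markers and does not tell in which cells a transcript was made. It shifts all genes of a library by the same amount, and the order of the genes stays. On the deposited RPKM, H2-DMa and H2-Oa differed from rest by -0.73 and -1.12 at 24 h, below the median of -0.04 of all genes tested. Their higher values on these scales are therefore not particular to them.

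**Figure D3:**
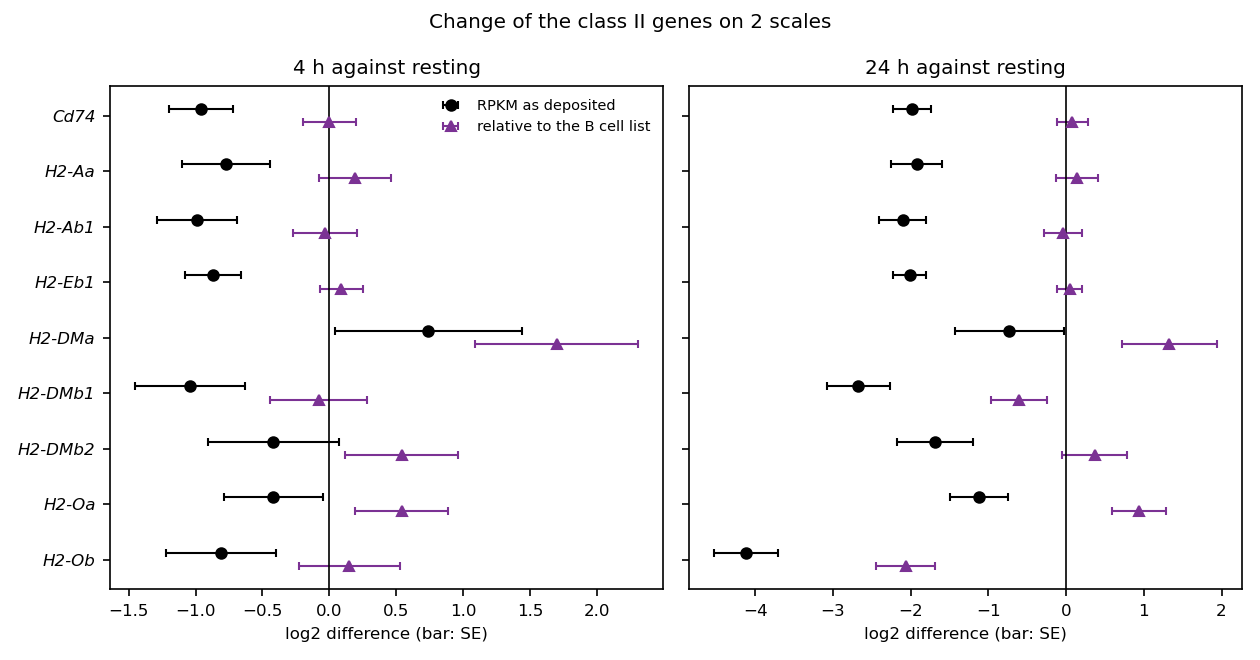
Log2 difference of 9 class II genes from resting cells at 4 h (left) and 24 h (right), with bars for the SE, on the deposited RPKM (black circles) and relative to the B cell list (purple triangles). At 24 h Cd74 moved from -1.98 to 0.08 between the scales, H2-Ob from -4.12 to -2.06 and H2-DMa from -0.73 to 1.33.

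Skewing was compared across all 18 cultures, hour by hour (time was a factor of the fit). Th1 cultures had the lower levels: all 10 genes but H2-Ob were below Th0 at 6 of 6 time points, and H2-Ob at 4 of 6. H2-DMa differed most. It had a lowest, median and highest value of 13.7, 28.4 and 54.8 RPKM in Th0, of 5.76, 7.89 and 14.9 RPKM in Th1 and of 13.1, 15.7 and 44.4 RPKM in Th2. The Th1 value was 0.193 of the Th0 value at 8 h and 0.421 at 24 h, the extremes over the time points. The ranges of Th0 and Th1 met only where Th0 at 24 h lay under Th1 at 4 h, and at each single hour they were far apart.

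H2-DMa was lower in Th1 than in Th0 by 1.65 on the log2 scale (difference -1.65, SE 0.17, adjusted p = 6.45e-05, limma), and higher in Th2 than in Th1 by 1.11 (SE 0.17, adjusted p = 0.000342, limma). Between Th2 and Th0 it differed by -0.54 (SE 0.17, adjusted p = 0.0279, limma), under 2-fold. These comparisons share cultures. Markers of B cells and macrophages differed in part. Between Th1 and Th0, Cd79a differed by -0.32 (adjusted p = 0.169, limma) and Ms4a1 by -0.35 (adjusted p = 0.392, limma), and 1 of 13 B cell genes tested was called, Fcer2a, an IL-4 response gene as well, at -1.21 (adjusted p = 6.45e-05, limma). Between Th2 and Th1, Cd79a differed by 0.05 (adjusted p = 0.804, limma) and Ms4a1 by 0.10 (adjusted p = 0.796, limma), while Fcer2a was higher in Th2 by 2.14 (adjusted p = 1.71e-08, limma) and Cd79b by 1.11 (adjusted p = 0.000241, limma). The medians of the B cell list were -0.22 and 0.12. Of 10 macrophage genes tested, 0 were called between Th1 and Th0 (limma), where 2 had an unadjusted p under 0.05, beside 1757 of all 10737 genes. Lower in Th2 than in Th1 was 1 of the 10, Mpeg1, at -1.15 (adjusted p = 4.29e-05, limma). The part of B cells and macrophages in the difference of H2-DMa was not tested. Relative to the B cell list H2-DMa was lower in Th1 than in Th0 by 1.49 (difference -1.49, SE 0.15, adjusted p = 6.26e-06, limma), and higher in Th2 than in Th1 by 1.01 (SE 0.15, adjusted p = 8.28e-05, limma).

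Dendritic cell transcripts also differed between conditions. Ccl17, a chemokine made by dendritic cells and induced by IL-4, was higher in Th2 than in Th1 by 3.09 on the log2 scale (SE 0.26, adjusted p = 5.12e-07, limma), and lower in Th1 than in Th0 (difference -1.12, SE 0.26, adjusted p = 0.0305, limma). Ccl22 was higher in Th2 than in Th1 by 1.89 (SE 0.17, adjusted p = 1.3e-06, limma). Itgax had a difference of 0.54 between Th2 and Th1 (adjusted p = 0.00343, limma), under 2-fold, and Zbtb46, Siglech and Fscn1 had differences of 0.31, -0.05 and 0.02. The summed dendritic cell list, 14.1 and 16.1 RPKM at rest, lay between 13.4 and 55.7 RPKM in Th0, 11 and 27.7 RPKM in Th1 and 18.1 and 100 RPKM in Th2, with 2 of its 6 tested genes called in Th2 against Th1. Of that sum Ccl22, a chemokine gene, made up 0.441 and 0.480 RPKM at rest and 78.2 of the 100 RPKM in Th2 at 16 h. From rest to 24 h, the list did not move 1 way. The defining marker Itgax fell by 2.40 (adjusted p = 9.08e-07, limma) and Siglech fell by 1.96 (adjusted p = 9.13e-06, limma). Ccl22 rose by 5.13 (adjusted p = 2.89e-05, limma) and Fscn1 by 2.77 (adjusted p = 1.18e-08, limma). Thus 2 of the 6 tested genes fell and 2 rose, with a median of 1.13, against 17.4% and 12.7% of all genes. The part of dendritic cells in the differences of H2-DM was not tested.

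The locus of H2-DMa (ENSMUSG00000037649.10, GRCm38 chromosome 17, 34119541 to 34139101, plus strand) overlaps Brd2 on the opposite strand, with 360 of its 3448 annotated exon bases, or 10.4%, in common. Whether the counting used strand is not given in the sources used here, so reads there cannot be told apart. Brd2 had 165 and 181 RPKM at rest, far above H2-DMa. It differed by -0.12 between Th1 and Th0 (adjusted p = 0.319, limma) and by -0.13 between Th2 and Th1 (adjusted p = 0.191, limma). The part of reads from Brd2 in the values of H2-DMa was not tested.

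**Figure D4:**
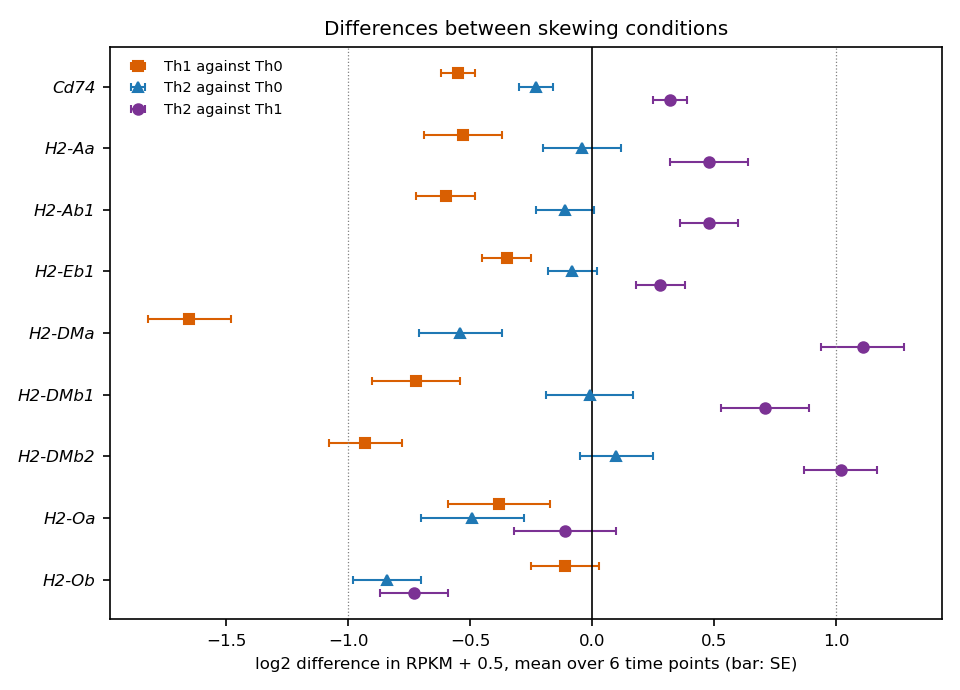
Log2 differences between skewing conditions for 9 class II genes, averaged over 6 time points, with bars for the SE: orange squares Th1 against Th0, blue triangles Th2 against Th0, purple circles Th2 against Th1, and dotted lines at 2-fold. H2-DMa in Th1 against Th0 lay at -1.65, and H2-DMa and H2-DMb2 in Th2 against Th1 at 1.11 and 1.02.

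The beta chains of H2-DM pointed the same way. H2-DMb2 had 1.79, 4.98 and 8.53 RPKM as lowest, median and highest value in Th0, 1.24, 2.32 and 3.69 RPKM in Th1, and 3.67, 5.19 and 7.19 RPKM in Th2. It was higher in Th2 than in Th1 by 1.02 on the log2 scale (SE 0.15, adjusted p = 0.000176, limma) and at 6 of 6 time points, with the smallest ratio, 1.72, at 16 h. The call was kept in 11 of 17 alternatives, with the difference between 0.90 and 1.15. Its difference of Th1 to Th0 was -0.93 (SE 0.15, adjusted p = 0.00239, limma), just under 2-fold. H2-DMb1 was higher in Th2 than in Th1 at 6 of 6 time points as well, with a difference of 0.71 (SE 0.18, adjusted p = 0.0142, limma).

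The invariant and classical chains differed less. Th1 against Th0 gave log2 differences of -0.55 for Cd74 (SE 0.07, adjusted p = 0.000474, limma), -0.60 for H2-Ab1 (SE 0.12, adjusted p = 0.0115, limma), -0.53 for H2-Aa (SE 0.16, adjusted p = 0.103, limma) and -0.35 for H2-Eb1 (SE 0.10, adjusted p = 0.077, limma). All were under 2-fold, although each of the 4 genes was lower in Th1 at 6 of 6 time points. Relative to the B cell list these differences were -0.38, -0.43, -0.36 and -0.19, with adjusted p between 0.0293 and 0.181 (limma). Between Th2 and Th0, Cd74 differed by -0.23 (SE 0.07, adjusted p = 0.0244, limma), H2-Ab1 by -0.11, H2-Aa by -0.04 and H2-Eb1 by -0.08, the last 3 with adjusted p between 0.494 and 0.859 (limma). The signs of all 4 genes between Th2 and Th0 turned on the scale of Cd79a and Ms4a1, and that of H2-Aa on the scale of the B cell list.

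H2-Ob went another way, being lowest in Th2. It had 2.03, 6.94 and 21.2 RPKM as lowest, median and highest value in Th0, 2.00, 6.83 and 22.4 RPKM in Th1, and 1.07, 3.11 and 19.0 RPKM in Th2. Th2 was below Th0 and below Th1 at 6 of 6 time points. The differences were -0.84 to Th0 (SE 0.14, adjusted p = 0.000404, limma) and -0.73 to Th1 (SE 0.14, adjusted p = 0.00167, limma), both under 2-fold. Relative to the B cell list they were -0.77 and -0.83 (adjusted p = 0.000117 and 4.52e-05, limma). H2-Oa had differences between -0.49 and -0.11 in the 3 comparisons, none past the threshold (adjusted p from 0.0884 to 0.78, limma).

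With no filter, Ciita differed by -0.31 between Th1 and Th0 (adjusted p = 0.244, limma), by 0.22 between Th2 and Th1 (adjusted p = 0.29, limma) and by -0.09 between Th2 and Th0 (adjusted p = 0.637, limma). Each had an SE of 0.11. Its highest library, Th0 at 8 h with 1.40 RPKM (187 reads, exact Poisson 95% interval 1.13 to 1.72 RPKM), was 2.45 times Th1 at the same hour (83 reads, 0.413 to 0.778 RPKM), the widest gap between conditions at an hour.

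By count, 1 of 9 genes passed the threshold between Th1 and Th0 (H2-DMa), against 0.494% of all genes tested, 2 of 9 between Th2 and Th1 (H2-DMa and H2-DMb2), against 1.96%, and 0 of 9 between Th2 and Th0 (limma), against 2.01%. In the last comparison 4 of 9 genes had an unadjusted p under 0.05, a share near that of all genes tested (4423 of 10737). The median log2 difference of the 9 genes was -0.55 between Th1 and Th0, 0.48 between Th2 and Th1 and -0.11 between Th2 and Th0, beside -0.01, 0.02 and 0.00 for all genes.

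Whether a condition difference grew or shrank with time was tested as a slope, and 0 of the 9 genes passed in any of the 3 comparisons (limma). Of all genes tested, 5.15% passed between Th2 and Th0, 1.09% between Th2 and Th1 and 0.0279% between Th1 and Th0. Unadjusted p was under 0.05 for 2, 2 and 0 of the 9 genes, beside 2466, 1957 and 991 of all 10737 genes tested. Slopes lay between -0.14 and 0.28 on the log2 scale per 4 h. Without the 4 h cultures, 3 of the 9 passed between Th2 and Th0, and 1 between Th2 and Th1.

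In the actinomycin series, class II transcripts were present in all 4 libraries. Cd74 had 50.9, 56.4, 45.2 and 60.4 RPKM after 0, 1, 2 and 4 h, with no order. H2-Aa had 23.9, 25.1, 24.6 and 18 RPKM and H2-Ab1 17.4, 18.8, 12.9 and 14.8 RPKM. These levels lay below the 16 h cultures (64.9 to 107 RPKM for Cd74, 27.0 to 43.7 RPKM for H2-Aa, 21.9 to 35.0 RPKM for H2-Ab1) and within the range of the cultures from 16 to 24 h. H2-DMa had 9.29, 11.6, 15.5 and 13.3 RPKM, and Ciita 0.496, 0.715, 0.416 and 0.337 RPKM.

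The B cell markers in these libraries were low: Cd79a had 0.613 to 1.63 RPKM and Ms4a1 0.162 to 0.302 RPKM. The classical sum was thus 55.7 to 117 times that of the pair, against 9.20 to 25.7 times in the resting and culture libraries. The summed B cell list had 39.0 to 58.3 RPKM, below the 69.4 to 82.5 RPKM of the 16 h cultures. In the 24 h cultures it had 41.6 to 51.2 RPKM. Csf1r, C1qa and Adgre1 summed to 2.64 to 4.13 RPKM, like the 3.17 to 3.92 RPKM of Th0 and Th1 cultures at 16 h and the 2.22 RPKM of Th2. The whole macrophage list summed to 64.2 to 87.5 RPKM against 17.7 to 39.3 RPKM at 16 h, led by Lyz2 at 21.5 to 60.0 RPKM and by Cd68 at 3.82 to 30.5 RPKM. The dendritic cell list summed to 42.8 to 48.6 RPKM, and Itgax was at 0.329 to 0.514 RPKM. The part of these cells in the class II level was not tested. The actinomycin libraries carry neither label tag, and the part of a difference between preparations in these values was not tested.

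Over the hours with actinomycin, 0 of 9 genes had a slope past the threshold (limma), against 20.9% of all genes tested. Unadjusted p was under 0.05 for 1 of the 9, beside 3491 of all 10571 genes tested. Slopes lay between -0.16 for H2-Oa and 0.20 for H2-Ob on the log2 scale per hour, with a median of -0.02. RPKM is relative to each library, so a transcript that decays like the rest shows no slope.

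The wider pathway was followed through lists. Of 10 tested genes that process or regulate class II (12 in the table), 7 fell between rest and 24 h and 0 rose. Of all genes tested, 17.4% fell and 12.7% rose. The median log2 difference of the 10 genes was -1.60. The falls were led by March8, a ubiquitin ligase of membrane proteins, with 4.64, and the protease Lgmn with 3.60. The cathepsins Ctsh and Ctsb fell by 2.77 and 2.20. For these named genes adjusted p was from 1.15e-10 to 2.87e-06 (limma). The macrophage list fell over the same hours, with a median log2 difference of -5.14. The part of macrophages in the falls of these genes was not tested. Cd83, which keeps class II at the surface, was higher in Th2 than in Th1 by 1.71 (SE 0.25, adjusted p = 0.000193, limma), and cathepsin S, Ctss, was lower there, with a difference of -1.09 (SE 0.17, adjusted p = 0.000378, limma). The other 8 did not pass the threshold between Th2 and Th1, which 1.96% of all genes tested passed in either direction.

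The factors of the X and Y boxes differed less. Of Rfx5, Rfxap, Rfxank, Creb1, Nfya, Nfyb and Nfyc, 0 of 7 passed the threshold at 24 h (limma). Unadjusted p was under 0.05 for 2 of them, beside 7468 of all 10897 genes tested. Their median was -0.15, with the widest difference at -0.47 for Rfx5 (adjusted p = 0.0182, limma), followed by -0.27 for Rfxank (adjusted p = 0.0498, limma). Between conditions their differences lay between -0.21 and 0.12, and in each comparison 0 of 7 passed or had an unadjusted p under 0.05 (lowest adjusted p = 0.173, limma).

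Of 11 genes upstream of Ciita tested at 24 h, 1 rose (Irf8, by 2.76, SE 0.84, adjusted p = 0.00831, limma), a share below the 12.7% of all genes that rose. Against 17.4% of all genes, 5 of the 11 fell, among them Spi1, a myeloid and B cell factor, by 2.52, Prdm1 by 1.66 and the interferon gamma receptor chain Ifngr1 by 1.29. In Th2 against Th1, Irf8 and Irf1 both differed by -1.96 (adjusted p at most 1.05e-05, limma), while Ciita gave 0.22 as above. Of 11 interferon gamma response genes, 10 were lower in Th2 than in Th1 past the threshold, with a median of -2.25, against 149 of 10737 genes tested. All 5 IL-4 response genes were higher there, with a median of 1.60, against 61 of 10737. Between Th2 and Th0, 0 of these 5 passed, with a median of 0.92, where 216 of 10737 genes did. In Th1 against Th0, 3 of the 5 were lower, against 34 of 10737. Il4ra was higher in Th2 than in Th1 by 1.27 (SE 0.23, adjusted p = 0.0015, limma). It differed by -0.15 between Th2 and Th0 (adjusted p = 0.66, limma) and by -1.42 between Th1 and Th0 (adjusted p = 0.00304, limma).

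MHC class I genes stood beside class II as follows. Of 10 class I genes, 5 were lower in Th2 than in Th0 past the threshold, against 196 of all 10737 genes tested. They were led by Nlrc5, the coactivator of class I, at -1.61, Psmb9 at -1.50, Tap1 at -1.44 and Tap2 at -1.24 (adjusted p at most 1.08e-06, limma). The median was -1.04 against -0.11 for class II. Against Th1 3 of 10 were lower, where 149 of 10737 genes were, with a median of -0.81 against 0.48 for class II. Between rest and 24 h, 2 of 10 class I genes fell, Psmb10 by 1.24 and H2-D1 by 1.02, a share near the 17.4% of all genes. Of the costimulatory molecules of presenting cells that were tested, Cd86 fell by 2.73 at 24 h (adjusted p = 8.75e-06, limma). Cd40 had a difference of 0.96 (adjusted p = 0.000272, limma), under 2-fold.

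The patterns most like those of the group are given as Pearson r over the 20 libraries, a description over points that share the time axis. Among 10888 genes outside the group, the 5 most like H2-Ab1 were Baiap3 (r = 0.935), Sh3gl1 (0.928), Dennd1c (0.913), Arl4d (0.912) and Cited4 (0.910). Of these, Sh3gl1 and Baiap3 stayed among the 5 most like it over the 18 cultures alone, with 0.895 and 0.892. The 5 most like Ciita were Cdc42se1 (0.823), Ccdc130 (0.811), Snn (0.805), Taf8 (0.804) and Trav13-4-dv7 (0.802), all weaker. For H2-DMa and H2-Ob, looked up after their values were seen, the leading genes over the 18 cultures were Itgb3 (0.973), Tmie (0.953), Sft2d2 (0.938), Lyst (0.936) and Il4ra (0.929), and Ifngr1 (0.987), Ypel5 (0.986), Ifi27 (0.985), Map4k3 (0.983) and Vps54 (0.983).

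In GRCm38, Cd74 (ENSMUSG00000024610.15) spans 60803848 to 60812652 of chromosome 18 and Ciita (ENSMUSG00000022504.10) spans 10480059 to 10528418 of chromosome 16, both on the plus strand. The other 8 genes lie on chromosome 17 between 34092340, the start of H2-Oa, and 34316674, the end of H2-Eb1, so neighbours there can share annotated bases. H2-Oa shares 321 of its 1407 exon bases, or 22.8%, with BC051537 on the opposite strand, and Ciita 329 of 9535, or 3.45%, with Dexi. None of the 50-base windows of Cd74, H2-Ab1, H2-Eb1 and H2-Ob occurs in transcripts of other genes.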

How the data were processed

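RNA sequencing was carried out by the authors on an Illumina NextSeq. BWA and GRCm38 are named in the submitters' processing notes, without versions. The authors deposited RPKM values (reads scaled to transcript length and mapped reads) per gene symbol for 24 libraries, and how strand and multiply mapped reads were treated is not given in the sources used here. Of 22010 rows, 1 has no name and was left out, and 0 columns were unused. Mapped reads and reads per gene were recovered from the steps of the values (tolerance 0.02 of a whole number). Counts of 2 reads were commoner than of 1, so 2 reads were taken as 1 fragment in the exact Poisson 95% intervals. These cover counting error only, and the depth behind the other genes is unknown.

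The test was limma (version 3.58.1, R 4.3.3) with a trend of the variance on the level, fitted to log2(RPKM + 0.5) of every gene whose mean reached 1 RPKM, and p was adjusted by Benjamini and Hochberg over these genes. This was 10897 genes against resting cells, 10737 between conditions and 10571 with actinomycin. A gene was called at 2-fold or more with adjusted p below 0.05, and a slope by adjusted p alone. Each time was set against rest in a fit of 20 libraries, and conditions in a fit of 18 cultures that held time as a factor. The fits were tested on simulated data. Python 3.11.15 with numpy 2.4.6, pandas 2.3.3, scipy 1.17.1 and matplotlib 3.10.9 was used. Exon overlaps and transcript windows came from GENCODE M21 (GRCm38), promoters from RefSeq.

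The members and lists were chosen with earlier results of these data known. Some listed genes are not reported here. Named were all 10 members, the defining markers, for each comparison up to 4 genes of each other list by size of change, and the 5 genes most like H2-Ab1 and Ciita. Outside this rule, the X and Y box factors without a call, Il4ra between Th2 and Th0, further markers of other cells and the genes most like H2-DMa and H2-Ob were named after their values were seen. Alternatives were other pseudocounts, filters and scalings, no trend, fewer libraries, and leaving out libraries, conditions or time points.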

Additional observations from a re-analysis of the deposited data

Results flagged for a closer look

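H2-DMa differed between skewing conditions past the threshold by a test of the difference over 6 time points. It was lower in Th1 than in Th0, with a log2 difference of -1.65 (SE 0.17, adjusted p = 6.45e-05, limma, lower at 6 of 6 time points), and higher in Th2 than in Th1, with a difference of 1.11 (SE 0.17, adjusted p = 0.000342, limma, higher at 6 of 6). The first kept its call in 18 of 18 alternatives, between -1.75 and -1.32, and the second in 17 of 18, between 1.00 and 1.17.

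H2-DMb2 was higher in Th2 than in Th1, with a difference of 1.02 (SE 0.15, adjusted p = 0.000176, limma, higher at 6 of 6 time points). This call was kept in 11 of 17 alternatives, with the difference between 0.90 and 1.15. H2-DMb2 shares part of its sequence with H2-DMb1, which gave 0.71 in the same direction.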

How the results depend on the processing

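Of 891 values of single genes under the alternatives, 787 kept both sign and call, 35 lost the call, 15 gained it and 54 changed sign; the cause was not tested unless stated. The call of H2-DMa between Th1 and Th0 and those of H2-Ob from rest and from 4 h to 24 h held under every alternative run. Each fit rests on 1 library per condition and time. Ciita at 24 h rests on 37 to 70 reads. The reads behind H2-DMb1, with 0.259 to 1.66 RPKM at 24 h, are unknown.

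Scaled to the B cell list, 0 of 9 genes fell at 8 h and 1 (H2-Ob) at 12, 16, 20 and 24 h and from 4 to 24 h, and scaled to Cd79a and Ms4a1, 0 fell at 8, 12 and 16 h and 1 at 20 and 24 h and from 4 to 24 h. On the B cell list the log2 difference from rest turned to 0.19 for H2-Aa, 0.09 for H2-Eb1, 0.54 for H2-DMb2, 0.54 for H2-Oa and 0.15 for H2-Ob at 4 h. At 24 h it turned to 0.08 for Cd74, 0.14 for H2-Aa, 0.05 for H2-Eb1, 1.33 for H2-DMa, 0.37 for H2-DMb2 and 0.94 for H2-Oa. From 4 to 24 h it turned to 0.08 for Cd74 and 0.40 for H2-Oa, and between conditions to 0.02 for H2-Aa and 0.06 for H2-DMb1 (Th2 to Th0) and 0.06 for H2-Ob (Th1 to Th0). On Cd79a and Ms4a1 it turned to 0.18 for H2-Aa, 0.08 for H2-Eb1, 0.53 for H2-DMb2, 0.53 for H2-Oa and 0.14 for H2-Ob at 4 h, and at 24 h to 0.49 for Cd74, 0.55 for H2-Aa, 0.38 for H2-Ab1, 0.46 for H2-Eb1, 1.75 for H2-DMa, 0.78 for H2-DMb2 and 1.35 for H2-Oa. From 4 to 24 h it turned to 0.50 for Cd74, 0.37 for H2-Aa, 0.41 for H2-Ab1, 0.38 for H2-Eb1, 0.06 for H2-DMa, 0.25 for H2-DMb2 and 0.83 for H2-Oa. Between conditions it turned to 0.03 for Cd74, 0.21 for H2-Aa, 0.15 for H2-Ab1, 0.25 for H2-DMb1 and 0.18 for H2-Eb1 (Th2 to Th0) and 0.23 for H2-Ob (Th1 to Th0).

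The difference of H2-DMb1 between Th2 and Th0, near 0, turned to 0.01 with a pseudocount of 0.1, 0.03 with median-of-ratios scaling, 0.09 under quantile normalization and 0.08 at 12 to 24 h only, and that of H2-Oa between Th2 and Th1 to 0.11 at 12 to 24 h only. With a time point left out, Th2 to Th0 ranged from -0.22 to 0.05 for H2-Aa, -0.17 to 0.18 for H2-DMb1 and -0.08 to 0.20 for H2-DMb2, and Th2 to Th1 from -0.28 to 0.06 for H2-Oa.

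At 4 h, 2 genes fell under quantile normalization and 1 with only the libraries compared, against 0. At 8 h, 3 fell with median-of-ratios scaling and 3 when a mean of 5 RPKM was required, against 5. With that filter, which leaves 6 genes, 5 fell at 20 h and at 24 h, against 8. With a resting library or a condition left out, the count ranged from 0 to 5 at 4 h, 2 to 7 at 8 h and 4 to 8 from 4 to 24 h. Where 1 resting library is left, its spread is taken from the rest of the fit.

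Between Th2 and Th1, 1 gene passed with a pseudocount of 1, the filter at 5 RPKM the B cell list or Cd79a and Ms4a1 as scale, and 0 with no time factor, against 2; with a time point left out it was 1 to 2. Between Th1 and Th0, 2 passed with a pseudocount of 0.1, against 1, and 1 to 2 with a time point left out. Slopes passed for 0 to 3 genes for Th2 to Th0 and 0 to 1 for Th2 to Th1 with a time point left out. By replicate number, no paired analysis was possible because such numbers are given for resting cells alone; conditions were compared within time points, with time as a factor.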
